A study of Mus musculus with 5 samples.

Results

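The myogenic regulatory factors (Myod1, Myf5, Myf6 and Myog), the satellite cell factor Pax7 and the MEF2 factors Mef2a, Mef2c and Mef2d are the DNA-binding proteins that set up and maintain the skeletal muscle gene program. These 8 genes were taken by name from the 17015 genes with expression values in tibialis anterior (TA) muscle, a fast-twitch muscle of the lower hind limb. The RNA came from 8-week-old sedentary male mice, in 3 libraries of WT control TA (Ctrl in the labels) and 2 libraries of skmNrip1-/- TA (Nrip1KO in the labels). The study compared these groups to learn how muscle depends on RIP140, a transcriptional corepressor encoded by Nrip1. The comparison asks whether the factors that specify muscle differ in amount between the groups.

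The floxed mice were C57BL/6J and the Cre mice they were bred with C57BL/6JN. The skmNrip1-/- mice carried Nrip1 fl/fl alleles and a Cre recombinase driven by a myogenin promoter, which removes the coding exon of Nrip1 in differentiating muscle cells and the fibers they form. The WT control mice were littermates without Cre. The Cre transgene therefore uses the control sequence of one of the genes described here, and its own RNA was not analysed here. TA is a mixed tissue of muscle fibers, satellite cells, vessels, nerve and connective tissue, and this Cre is meant for muscle cells alone. In whole muscle, fewer cells of a type and less RNA per cell cannot be told apart. The labels do not tie a library to a mouse or culture, so the p-values measure only the spread between these libraries.

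FPKM (fragments per kilobase of transcript, by its name scaled to library size) is a level per length. The values already carried a scaling between libraries, and it did not give them equal totals. The median of ratios, a scaling factor set by the middle gene, was the same in all 5 libraries. The FPKM sums ran from 969144 to 1288040, and rescaling to TPM, used below, sets these sums equal. Depth here means fragments per FPKM and kb, read from the steps between low values. It was 0.811 to 1.09 times that of WT control replicate 1, and it is no count of all fragments sequenced. For scale, 1 FPKM over 1 kb stood for at most 53.9 fragments. Nrip1, the targeted gene, was at 4.64, 7.69 and 6.55 FPKM in WT control TA and at 25.3 and 22.5 FPKM in the libraries labelled skmNrip1-/- (log2 fold change 1.94, standard error 0.21, adjusted p = 0.0261 from limma). Taken alone, the higher value runs against the label of a deletion. A gene-level value does not separate the deleted exon, so it shows neither the deletion nor its absence. The paper measured Nrip1 RNA and RIP140 protein in gastrocnemius and heart of skmNrip1-/- mice, and those values were not compared here. Every direction below rests on the labels. Muscle fiber markers summed to 43271 to 54040 FPKM in WT control TA and 37396 to 38760 in the libraries labelled skmNrip1-/-, which matches the labelled tissue.

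Myogenic regulatory factors are basic helix-loop-helix proteins that pair with E proteins and bind E-boxes in the promoters and enhancers of muscle genes. Myod1 and Myf5 commit cells to the muscle fate, Myog drives their fusion and differentiation, and Myf6 (also called MRF4) is the factor best known from adult fibers. MEF2 proteins bind AT-rich sites and act together with the myogenic factors, while class II histone deacetylases hold them in check until kinases release them.

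The promoters of Myog and Mef2c are shown because the former drives the Cre in this model and the latter belongs to the most abundant of the 8 RNAs (the first of its start sites). Each line gives the 250 bases before the RefSeq start site (GRCm38.p6, plus strand), 5′ to 3′. Capitals mark the motifs found on either strand: the E-box CANNTG, the MEF3 site TCAGGTT, and the MEF2 core TANNNNTA, which is part of the longer MEF2 consensus.
Myog, chr1:134289754-134290003: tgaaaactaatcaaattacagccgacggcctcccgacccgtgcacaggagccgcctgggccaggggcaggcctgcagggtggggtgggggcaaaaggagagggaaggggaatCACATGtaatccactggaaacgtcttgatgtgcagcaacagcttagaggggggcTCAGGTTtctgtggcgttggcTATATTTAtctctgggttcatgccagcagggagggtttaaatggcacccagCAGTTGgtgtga
Mef2c, chr13:83503784-83504033: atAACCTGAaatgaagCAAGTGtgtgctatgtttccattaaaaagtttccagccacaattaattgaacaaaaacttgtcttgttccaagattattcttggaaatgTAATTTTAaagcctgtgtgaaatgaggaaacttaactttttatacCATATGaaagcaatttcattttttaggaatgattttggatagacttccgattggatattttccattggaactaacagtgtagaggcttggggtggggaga

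In the Myog window, E-boxes lay 138 to 133 and 12 to 7 bases before the start, the MEF3 site 84 to 78 bases before it and the MEF2 core 63 to 56 bases before it. In GENCODE the Myog gene begins within this window, at 134289989, so the E-box nearest the RefSeq start lies inside the gene there. The first Mef2c window held E-boxes 234 to 229 and 100 to 95 bases before the start, a MEF3 site on the reverse strand 248 to 242 bases before it and a MEF2 core 145 to 138 bases before it. Both windows thus held all 3 kinds of motif. Mef2c has 3 windows, and only the first of them is shown. The second, chr13:83523406-83523655, held a MEF2 core and no E-box or MEF3 site, and the third, chr13:83573357-83573606, held an E-box and MEF2 cores and no MEF3 site. Among 32851 RefSeq promoter windows of the same length, 66.2% held an E-box, 3.49% the MEF3 site and 34.4% the MEF2 core. Neither window matched the full MEF2 consensus, which 2.92% of the windows held, or the E-box form CAGCTG, which 4271 of the 32851 windows held. RefSeq windows were matched for 6 of the 8 genes (Myf5, Myog, Pax7, Mef2a, Mef2c and Mef2d), with 8 windows among them. These matches describe letters in a window and are no measure of binding.

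The 8 genes kept 1 order of level in every library, from Mef2c through Mef2d, Myf6, Mef2a, Myod1, Myog and Myf5 to Pax7. No pair of neighbours overlapped across the 5 libraries. Mef2c was 1.27 to 1.66 times as high as Mef2d in FPKM within a library, and Mef2d 1.19 to 1.65 times as high as Myf6. The widest step lay between Myod1 and Myog, at 5.43 to 10.6 times. Ranked among all 17015 genes in WT control TA, Mef2c stood at percentile 96.4, Mef2d at 95.2, Myf6 at 93.7 and Mef2a at 88.2. Myod1 stood at percentile 72.8, and the genes of committed and resting precursors stood lower, with Myog at 40.4, Myf5 at 31.2 and Pax7 at 25.7. The MEF2 RNAs and Myf6 thus ranked near the top of the table and Pax7 in its lower part.

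**Figure D1:**
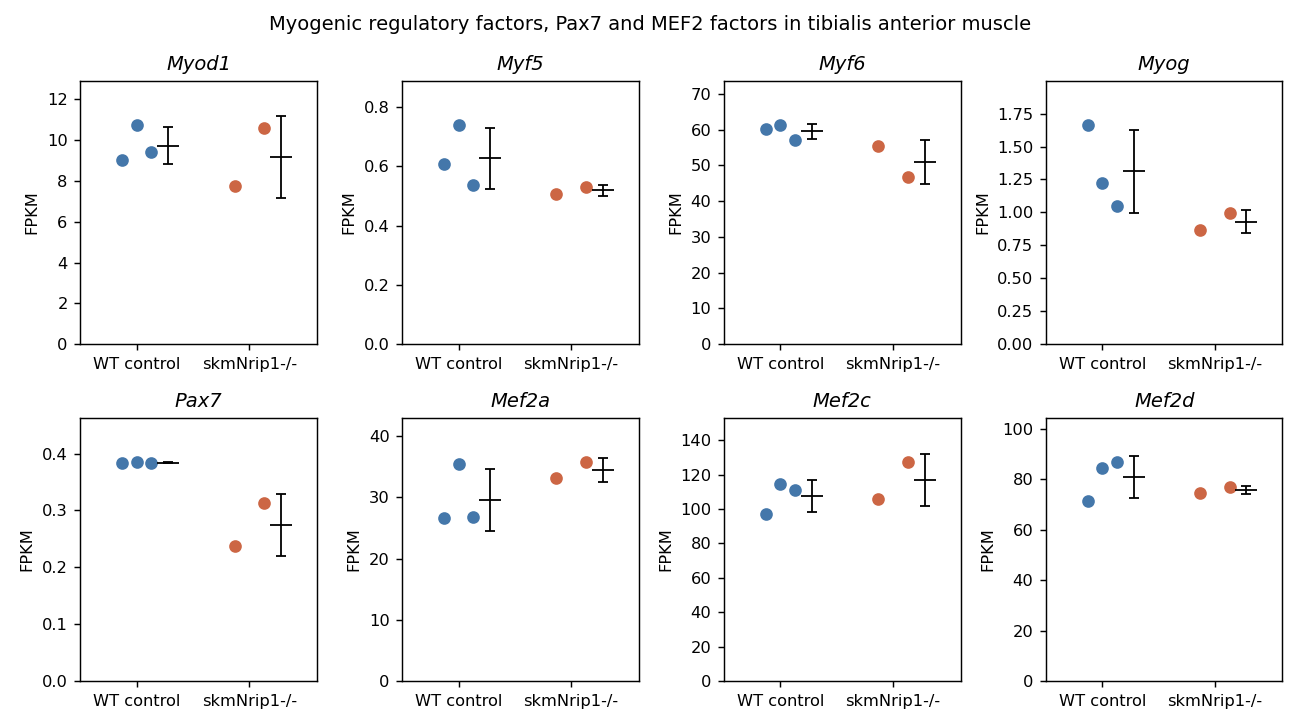
FPKM of each gene in the 3 WT control libraries (blue) and the 2 libraries labelled skmNrip1-/- (orange), on linear axes from 0 that differ between panels. Points are libraries in replicate order, and the bar beside them is the mean with its SD. Myf5, Myf6, Myog and Pax7 had both orange points below every blue point, and the other 4 panels overlap.

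None of the 7 genes that could be tested differed between the groups by the test used here, limma on log2(FPKM + 0.1) with adjustment over 12148 genes, a fold change of at least 1.2 and an adjusted p of 0.05 or less. Among all tested genes 0.37% were called higher and 0.0823% lower in the libraries labelled skmNrip1-/-. At an unadjusted p of 0.05 or less, 0 of the 7 genes passed, against 6.57% of all tested genes on the higher side and 5.33% on the lower side. The smallest p was 0.0913 (Myf6, adjusted p = 0.508). Of all 8 genes, 4 had both libraries labelled skmNrip1-/- below every WT control library, a pattern in 14.4% of all tested genes, and 0 had both above, a pattern in 15.8%. The 4 were Myf5, Myf6, Myog and Pax7. Over the 7 tested genes the median log2 fold change was -0.10, beside -0.00054 for all tested genes, and the median size of the change regardless of sign was 0.22 beside 0.15. Because 0.1 is added to each value, this scale shrinks the fold changes of weakly expressed genes.

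Myod1 (ENSMUSG00000009471, chr7:46376474-46379099, plus strand) had 9.03, 10.7 and 9.42 FPKM in WT control TA and 7.73 and 10.6 FPKM in the libraries labelled skmNrip1-/-. The groups overlapped, since skmNrip1-/- replicate 2 lay within the WT control range. The log2 fold change was -0.10 (standard error 0.16, 95% interval -0.49 to 0.29, adjusted p = 0.868 from limma). It was 0.12 without skmNrip1-/- replicate 1. The interval leaves room for a level between 0.711 and 1.22 times that of WT control. An estimated 480 to 899 fragments per library stood behind these values, a counting error of 3.34% to 4.56%, well under the spread between libraries.

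Myf5 (ENSMUSG00000000435, chr10:107482908-107486134, minus strand), which marks activated and some resting satellite cells, had 0.606, 0.740 and 0.537 FPKM in WT control TA. It had 0.506 and 0.531 FPKM in the libraries labelled skmNrip1-/-. Both were below all WT control libraries, by very little for the nearest pair, 0.531 and 0.537 FPKM, and only 35.9 to 70.7 fragments per library stood behind each value, a counting error of 11.9% to 16.7%. Limma gave a log2 fold change of -0.22 (standard error 0.26, 95% interval -0.85 to 0.40, adjusted p = 0.807 from limma). It was -0.12 without WT control replicate 2.

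Myf6 (ENSMUSG00000035923, chr10:107492853-107494737, minus strand) lies 6718 bases from Myf5 and encodes the most abundant of the 4 myogenic factors. Its RNA was at 60.0, 61.3 and 57.1 FPKM in WT control TA and at 55.4 and 46.7 FPKM in the libraries labelled skmNrip1-/-. The groups did not overlap, and skmNrip1-/- replicate 1 lay closer to the lowest WT control library than to replicate 2 of its own group. In limma the log2 fold change was -0.22 (standard error 0.11, 95% interval -0.50 to 0.048, adjusted p = 0.508 from limma), and at 2113 to 3151 fragments per library the counting error was at most 2.18%. It was -0.35 without skmNrip1-/- replicate 1 and -0.10 without skmNrip1-/- replicate 2.

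Myog (ENSMUSG00000026459, chr1:134289989-134292548, plus strand) encodes myogenin. It was at 1.66, 1.22 and 1.05 FPKM in WT control TA and at 0.868 and 0.994 FPKM in the libraries labelled skmNrip1-/-. Both of these lay below all WT control libraries, and WT control replicate 1 was the highest by a wide margin. The log2 fold change, -0.43, was the largest in size among the tested genes of the family, but its error was large as well (standard error 0.24, 95% interval -1.01 to 0.14, adjusted p = 0.557 from limma). Without WT control replicate 1 it was -0.26, and without skmNrip1-/- replicate 1 it was -0.34, with Myf6 then at -0.35 and no longer behind Myog. The interval spans a level of 0.496 to 1.11 times that of WT control. Estimated fragments were 97.3, 78.1 and 61.2 in WT control TA and 41.2 and 56.1 in the libraries labelled skmNrip1-/-, a counting error of 10.1% to 15.6% in each.

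The genes closest to Myog in pattern, by the root mean square difference of centred log2 values over the 5 libraries, were Ncs1 (0.029), Gm13204 (0.049) and Ifit3b (0.063). They were picked from all tested genes for that likeness, over 5 libraries only. Ncs1, which encodes a neuronal calcium sensor, had 1.30, 0.984 and 0.828 FPKM in WT control TA and 0.719 and 0.790 FPKM in the libraries labelled skmNrip1-/-.

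Pax7 (ENSMUSG00000028736, chr4:139737062-139833528, minus strand), the defining factor of satellite cells, was at 0.383, 0.386 and 0.384 FPKM in WT control TA and at 0.237 and 0.314 FPKM in the libraries labelled skmNrip1-/-. Both of these lay below the WT control libraries, which were nearly equal. The mean was under the minimum of 0.5 FPKM, so Pax7 was not among the 7 tested genes. With the minimum removed, the log2 fold change was -0.38 (standard error 0.21, 95% interval -0.89 to 0.14, adjusted p = 0.636 from limma). The number of fragments depends on which of its 2 transcripts was present, with 13.4 to 29.5 per library if all came from the short one and 52.5 to 115 if all came from the long one. With so few fragments, the close agreement of the WT control libraries is no measure of how much Pax7 varies.

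Other markers of satellite cells were read beside Pax7 and Myf5, which belong to that list. The 11 markers summed to 64.4 to 66.2 FPKM in WT control TA and to 53.5 to 57.7 FPKM in the libraries labelled skmNrip1-/-, and none was at 0 in any library. Of the 9 tested, 0 were called, 4 lay above 0 and 5 below, with a median of -0.21. At an unadjusted p of 0.05 or less, Sdc4 was on the higher side (0.37) and Itga7 and Cdh15 were on the lower side. These sides held 6.57% and 5.33% of all tested genes. Itga7, a laminin receptor subunit that fibers also make, had the widest gap in FPKM of the list. It was at 32.8, 30.3 and 34.3 FPKM against 22.0 and 23.0 FPKM (log2 fold change -0.53, adjusted p = 0.129 from limma). Its mean was 32.5 FPKM in WT control TA and 22.5 FPKM in the libraries labelled skmNrip1-/-. That gap is about as wide as the gap between the marker sums, so the lower sum rests on Itga7. Sums of the markers other than Itga7 overlapped between the groups. Vcam1, a surface protein of satellite cells and vessels, was at 0.991, 1.24 and 1.11 FPKM against 1.47 and 1.49 FPKM. The markers did not share 1 direction, and the part of satellite cell number in the values of Pax7 and Myf5 was not tested.

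Summed over the 4 myogenic regulatory factors, WT control TA had 71.1 ± 2.99 FPKM (SD, n = 3), and the libraries labelled skmNrip1-/- had 61.7 ± 4.05 FPKM (SD, n = 2). Myf6 made up 83.6% ± 0.694 (SD, n = 3) of the former and 82.6% ± 4.57 (SD, n = 2) of the latter. Myod1 made up 13.7% and 15.0%, Myog 1.84% and 1.52%, and Myf5 0.879% and 0.844%. The share of each of the 4 factors overlapped between the groups. All 4 log2 fold changes lay below 0, also after each rescaling, while Myod1 turned positive without skmNrip1-/- replicate 1.

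**Figure D2:**
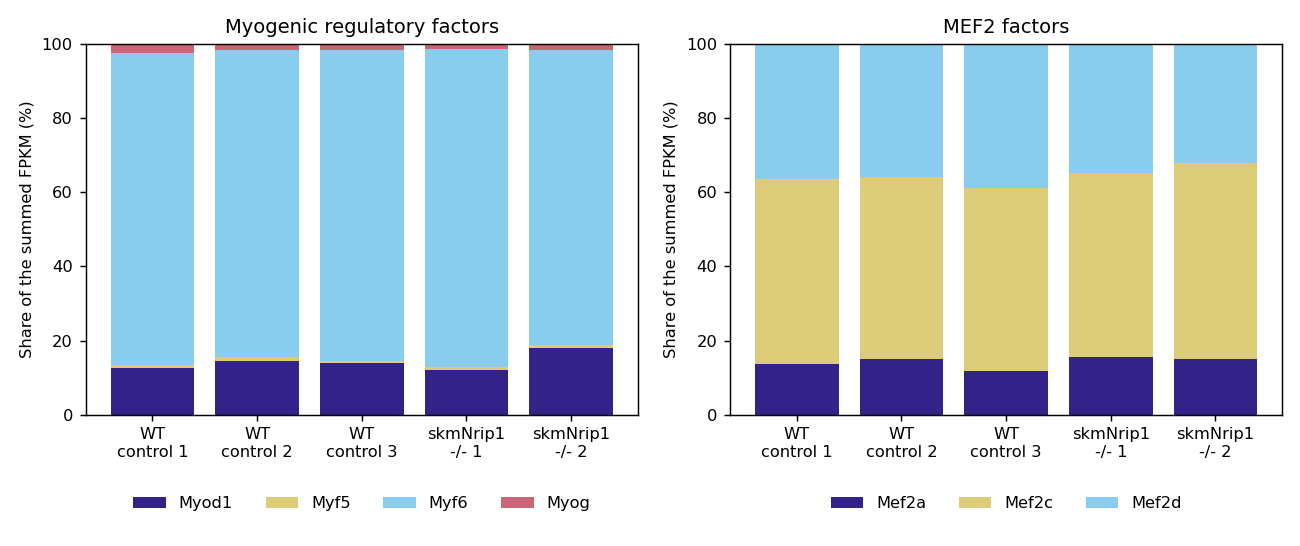
Share of each gene in the summed FPKM of its family, in percent, in each of the 5 libraries (left, myogenic regulatory factors; right, MEF2 factors). Myf6 held 79.4% to 85.9% of the left sums. Mef2d held 36.0% to 38.7% of the right sums in WT control TA and 32.03% to 34.9% in the libraries labelled skmNrip1-/-. The shares of all other genes overlapped between the groups.

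The ratio of Myod1 to Myog is a measure within a library that no scaling can move, and it is known to be higher in fast than in slow muscle. It was 5.43, 8.79 and 8.98 in WT control TA and 8.91 and 10.6 in the libraries labelled skmNrip1-/-. The groups overlapped, and WT control replicate 1, the library with the most Myog, stood lowest. The log2 difference was 0.37, with p = 0.50 in an exact two-sided permutation test over the 10 ways of giving out the labels, which cannot give a p below 0.1. It was 0.13 without WT control replicate 1 and 0.24 without skmNrip1-/- replicate 2.

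Mef2c (ENSMUSG00000005583, chr13:83504034-83667080, plus strand) encodes the MEF2 factor that fibers need for sarcomere assembly. It was at 97.1, 115 and 111 FPKM in WT control TA and at 106 and 128 FPKM in the libraries labelled skmNrip1-/-. The groups overlapped. The log2 fold change was 0.12 (standard error 0.13, 95% interval -0.20 to 0.43, adjusted p = 0.7997 from limma), and it was -0.018 without skmNrip1-/- replicate 2. The interval leaves room for 0.872 to 1.35 times the WT control level.

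Mef2d (ENSMUSG00000001419, chr3:88142372-88172086, plus strand), another MEF2 factor with a muscle-specific splice form, was at 71.3, 84.5 and 87.1 FPKM in WT control TA. It was at 74.6 and 77.0 FPKM in the libraries labelled skmNrip1-/-, inside the WT control range. Its log2 fold change was -0.089 (standard error 0.12, 95% interval -0.38 to 0.20, adjusted p = 0.836 from limma), and it lay between -0.18 (without WT control replicate 1) and -0.034 (without WT control replicate 3) when 1 library was left out. An antisense gene, 1700113A16Rik, overlaps Mef2d, and whether the counting used strand is not given in the sources used here.

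Mef2a (ENSMUSG00000030557, chr7:67231163-67372858, minus strand) was at 26.6, 35.4 and 26.8 FPKM in WT control TA and at 33.1 and 35.9 FPKM in the libraries labelled skmNrip1-/-. WT control replicate 2 stood between the libraries labelled skmNrip1-/-, and the other WT control libraries lay below them. For Mef2a the log2 fold change was 0.23 (standard error 0.15, 95% interval -0.13 to 0.60, adjusted p = 0.629 from limma). After rescaling to TPM, which lowered the median of all genes by 0.29, the values were -0.068 for Mef2a and -0.18 for Mef2c, or 0.22 and 0.11 relative to that median. Without WT control replicate 2 the value for Mef2a was 0.37. Lysmd4 overlaps Mef2a on the opposite strand, and Gm44667 and Gm44668 overlap it on the same strand.

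WT control TA had a MEF2 sum of 218 ± 20.6 FPKM (SD, n = 3), beside 227 ± 18.9 FPKM (SD, n = 2) with the label skmNrip1-/-. Within it, Mef2c held 49.4% ± 0.441 against 51.3% ± 2.45 and Mef2a 13.6% ± 1.59 against 15.2% ± 0.409. Mef2d held 37.1% ± 1.46 against 33.5% ± 2.04, and its share did not overlap between the groups, at 36.5%, 36.0% and 38.7% against 34.9% and 32.03%. It was the only share of either family without overlap, and it is named here after the shares were seen. In FPKM, 14.4% of all tested genes had both libraries labelled skmNrip1-/- below every WT control library. No test was run on the shares. The remaining MEF2 gene, Mef2b, was near the floor, at 0.0203 to 0.0744 FPKM in WT control TA and 0.0502 and 0.0842 FPKM in the libraries labelled skmNrip1-/-.

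**Figure D3:**
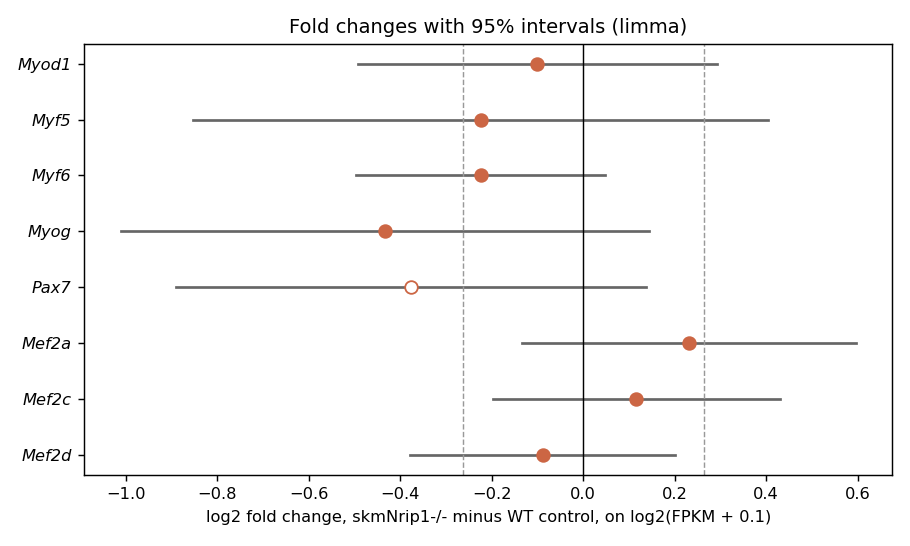
Log2 fold change of each gene on log2(FPKM + 0.1), libraries labelled skmNrip1-/- minus WT control, with 95% intervals from limma. The open circle is Pax7 from the fit without a minimum on FPKM, and the dashed lines mark a fold change of 1.2 in either direction. All 8 intervals include 0, and the values run from -0.43 for Myog to 0.23 for Mef2a. After rescaling to TPM, which lowered the median of all tested genes by 0.29, Mef2a and Mef2c lie below 0.

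The proteins that pair with the myogenic factors or restrain them were read next. All 3 E proteins were tested, none was called or had an unadjusted p of 0.05 or less in limma, and the median log2 fold change was 0.11, between -0.056 for Tcf3 and 0.12 for Tcf4 (-0.17 for Tcf4 after rescaling to TPM, and 0.019 for Tcf3 after rescaling to genes not encoded by mtDNA). Of the 10 inhibitors (Id proteins, Twist and related factors), 7 were tested and 0 called, and their median was -0.086 (0.036 without WT control replicate 1 and 0.064 without skmNrip1-/- replicate 1). Bhlhe40, a repressor under circadian control, had the only unadjusted p of 0.05 or less, at 34.2, 33.5 and 34.8 FPKM in WT control TA and 27.6 and 27.5 FPKM in the libraries labelled skmNrip1-/- (log2 fold change -0.31, adjusted p = 0.282 from limma). Its relative Bhlhe41 stood at 0.16 (-0.14 after rescaling to TPM) and Msc, which encodes musculin, at -0.43, the ends of the list.

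Upstream of the myogenic factors act homeobox, Eya, Pax, Pitx and Dach proteins. Of 12 such genes, 11 were tested and 0 called, 7 lay above 0 and 4 below, and the median was 0.0098. An unadjusted p of 0.05 or less was found for 3 genes, 2 higher and 1 lower, among them Dach2 and Pitx3. Of all tested genes 6.57% were so on the higher side and 5.33% on the lower side. Dach2, a repressor of Myog whose RNA goes down upon denervation, was at 0.667, 1.95 and 0.652 FPKM in WT control TA and at 2.48 and 2.71 FPKM in the libraries labelled skmNrip1-/-. A log2 fold change of 1.35 had a standard error of 0.45 (adjusted p = 0.319 from limma), and without WT control replicate 2 it was 1.83 and passed the threshold (adjusted p = 0.0383 from limma). Pitx3, a homeobox factor of muscle, was at 5.48, 4.62 and 7.52 FPKM against 4.23 and 3.51 FPKM (log2 fold change -0.57, adjusted p = 0.383 from limma).

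Among 12 MEF2 repressors and cofactors, 11 were tested and 0 called, 3 lay above 0 and 8 below, and the median was -0.22. An unadjusted p of 0.05 or less was found for 4 of the 11, all on the lower side, against 5.33% of all tested genes on that side. Mamstr, a coactivator that binds MEF2, was the lowest at 18.1, 7.32 and 8.16 FPKM in WT control TA and 4.95 and 4.52 FPKM in the libraries labelled skmNrip1-/- (log2 fold change -1.10, adjusted p = 0.325 from limma). It was -0.70 without WT control replicate 1. The others were Mrtfa at -0.58 and Srf at -0.37, partners in actin-responsive transcription, and Hdac7 at -0.50, a class II deacetylase (adjusted p = 0.249, 0.248 and 0.193 from limma). The related deacetylases Hdac4 and Hdac9 lay on the other side, at 0.34 and 0.37, and Hdac5 at -0.0018. The class II deacetylases thus did not share 1 direction. Vgll2, a muscle cofactor of TEAD proteins and MEF2, was at 49.3, 57.5 and 56.3 FPKM against 47.5 and 42.2 FPKM.

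Of 7 coactivators, 0 were called, 5 lay above 0 and 2 below, and the median was 0.085. Smarcd3, a chromatin remodelling subunit that works with Myod1 at muscle genes, was the lowest at 136, 97.9 and 107 FPKM in WT control TA and 73.1 and 77.7 FPKM in the libraries labelled skmNrip1-/- (log2 fold change -0.58, adjusted p = 0.243 from limma). It passed the threshold after rescaling to TPM (adjusted p = 0.0479 from limma), which lowered the median of all tested genes by 0.29. Rb1, the retinoblastoma protein gene, was the highest at 0.24 (-0.053 after rescaling to TPM). Of 10 kinases that act on MEF2, 0 were called, and 3 lay above 0 and 7 below, with a median of -0.055. Mapk12, a muscle p38 kinase, was at -0.37 and Camk2a at -0.30, the only ones with an unadjusted p of 0.05 or less (adjusted p = 0.373 and 0.344 from limma). Of all tested genes 5.33% had such a p on the lower side. Camk2g was the highest of these kinases at 0.17 (-0.12 after rescaling to TPM).

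Known targets of the myogenic factors were read in the same way. Of 16 listed, 14 were in the table, 13 were tested and 0 called, 3 lay above 0 and 10 below, and the median was -0.10 (0.012 without WT control replicate 1). Musk, the receptor kinase that organizes the neuromuscular junction, was the highest at 1.09, 1.49 and 1.76 FPKM in WT control TA and 3.49 and 3.30 FPKM in the libraries labelled skmNrip1-/-. These values did not overlap. The 95% interval of the log2 fold change was 0.68 to 1.72, with an adjusted p of 0.110 from limma. The acetylcholine receptor subunits at the same synapse did not share 1 direction, with Chrna1 at 0.20, Chrnb1 at 0.062, Chrne at -0.036 and Chrnd at -0.27, and none had an unadjusted p of 0.05 or less. The embryonic subunit Chrng was too low to test, at 0.0163 to 0.0410 FPKM in WT control TA and 0.193 and 0.301 FPKM in the libraries labelled skmNrip1-/-. On the lower side, Cdkn1a, a cell cycle inhibitor, was at 6.64, 5.97 and 6.58 FPKM against 4.36 and 3.16 FPKM (log2 fold change -0.77, adjusted p = 0.154 from limma). Cdh15, the M-cadherin gene of satellite cells, was at 6.13, 4.71 and 5.89 FPKM against 3.77 and 3.68 FPKM (log2 fold change -0.56, adjusted p = 0.241 from limma).

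All 14 targets of MEF2 were tested and 0 were called, with 3 above 0, 11 below and a median of -0.17. An unadjusted p of 0.05 or less was found for 3, all on the lower side, against 5.33% of all tested genes on that side. They were Myoz2 at -0.98, Myom2 at -0.39 and Klhl40 at -0.32 (adjusted p = 0.414, 0.295 and 0.395 from limma). Myoz2, a Z-disc protein of slow fibers, was at 61.3, 48.0 and 135 FPKM in WT control TA and 39.8 and 34.7 FPKM in the libraries labelled skmNrip1-/-, so WT control replicate 3 sets much of its difference. It was -0.55 without that library. Lmod3, a thin filament protein, was the highest at 0.17 (-0.13 after rescaling to TPM), and Ppargc1a, the gene of PGC-1α, was at 5.50, 9.86 and 7.70 FPKM against 7.55 and 7.05 FPKM. Muscle fiber markers, which include targets of both families, also summed lower in the libraries labelled skmNrip1-/-, and their part in these lists was not tested. Acta1, Ckm and Myh4, which make up most of that sum, were at -0.40, -0.29 and -0.21. Of the 8 markers 0 were called, 6 lay below 0 (Ttn at -0.029) and 2 above, Myh1 at 0.049 and Myh7 at 0.35. Only Actn3 (-0.77) had an unadjusted p of 0.05 or less in limma, against 5.33% of all tested genes on the lower side.

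Genes that fibers turn on in denervation or regeneration, when Myog and Myod1 are high as well, gave the only call in these lists. Of 11 listed, 9 were in the table, 6 were tested and 1 was called, on the higher side. Among all tested genes 0.37% were called higher and 0.0823% lower. Actc1, the cardiac α-actin of developing muscle, rose from 98.0, 74.8 and 49.6 FPKM in WT control TA to 493 and 313 FPKM in the libraries labelled skmNrip1-/- (log2 fold change 2.46, standard error 0.31, adjusted p = 0.0394 from limma). The call was lost without a minimum on FPKM (adjusted p = 0.0561 from limma), in eBayes without the trend (0.0943), and without WT control replicate 2 (0.0778), WT control replicate 3 (0.0914), skmNrip1-/- replicate 1 (0.218) or skmNrip1-/- replicate 2 (0.107). Its coding sequence is close to that of Acta1, which stood at 21925, 16403 and 19565 FPKM against 14766 and 14369 FPKM, so reads shared between these actins are uncertain.

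No other gene of that list was called. Ncam1, a cell adhesion gene of denervated fibers, was at 4.60, 1.33 and 1.90 FPKM in WT control TA and at 4.35 and 14.2 FPKM in the libraries labelled skmNrip1-/-. Its groups overlapped, with an unadjusted p of 0.0283 and an adjusted p of 0.349 from limma. An unadjusted p of 0.05 or less on the higher side was found for 6.57% of all tested genes. The embryonic myosin gene Myh3 was at 0.53 and the perinatal gene Myh8 at -0.10 in log2 fold change, Myl4 at -0.011 and Gadd45a, the lowest, at -0.22. The median of the list was 0.26, but -0.011 with the minimum on the mean raised to 1 FPKM, and 0.095 without skmNrip1-/- replicate 2.

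**Figure D4:**
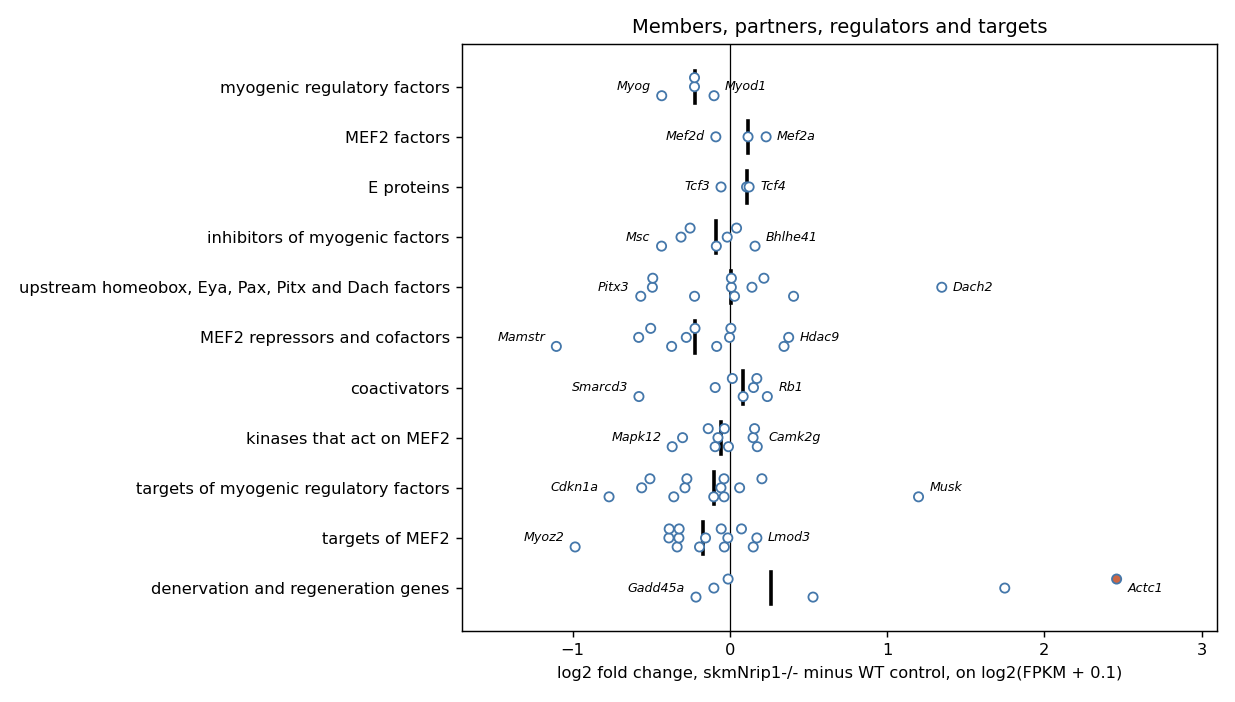
Log2 fold change on log2(FPKM + 0.1), libraries labelled skmNrip1-/- minus WT control, of every tested gene in the families and in the lists of their partners, regulators and targets. Open circles are single genes, the filled circle is the only called gene (Actc1, 2.46), the black bar is the list median, and the lowest and highest gene of each list are named. The medians lie between -0.22 and 0.26. After rescaling to TPM each of them lies below 0, but so does the median of all tested genes, at -0.29.

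Markers of other cell types were read because the muscle is mixed. Endothelial markers summed to 73.6 to 83.5 FPKM in WT control TA and 67.7 to 78.7 in the libraries labelled skmNrip1-/-, and those of fibro-adipogenic progenitors to 166 to 209 and 187 to 227. Macrophage markers summed to 7.43 to 15.5 and 9.56 to 11.4, Schwann cell markers to 17.1 to 25.9 and 14.3 to 22.1, adipocyte markers to 1.85 to 3.34 and 2.58 to 2.77, and smooth muscle markers to 46.8 to 55.4 and 44.5 to 53.0. The 6 sums overlapped between the groups, and none of their genes was called in limma, had an unadjusted p of 0.05 or less or was at 0 in any library.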

How the data were processed

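RNA from TA was sequenced by the authors as paired-end libraries (NEBNext Ultra RNA kit). Per the labels, the submitters' processing notes name Salmon 1.10.2, DESeq2 1.44.0 and mm10; the paper's methods add that transcript values were summarized to genes. The authors deposited 1 table with FPKM per gene and library. How FPKM were computed, whether strand was used and the annotation release are not given in the sources used here. Beside them the authors deposited DESeq2 results for each gene, a log2 fold change with an adjusted p-value, and these were not used.

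Positions and transcript lengths came from GENCODE M21 (GRCm38), which held 16996 of the 17015 gene IDs, 16919 with the same name. Columns were assigned to libraries by their labels. A figure legend of the paper gives n = 3 per group for this comparison, and no further skmNrip1-/- library was analysed here. Differences were fitted with limma 3.58.1 in R 4.3.3 (lmFit, eBayes with an intensity trend, no covariates) on log2(FPKM + 0.1) of all 5 libraries, for genes whose mean reached 0.5 FPKM, 2-sided, with Benjamini-Hochberg adjustment. The step was tested on simulated data. Tables and figures were made with numpy 2.4.6, pandas 2.3.3, scipy 1.17.1 and matplotlib 3.10.9 under Python 3.11.15. No fragment totals were given. Low FPKM of genes with 1 transcript fell on whole multiples of 1 fragment in 93.4% to 96.1% of 591 to 675 values per library (tolerance 0.1 fragment), and fragments were estimated from those steps. Counting errors cover counting only.

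Genes named are the 8 members, Nrip1, Mef2b, each list's highest and lowest tested gene, every called gene and the 3 nearest in pattern to Myog, which was also the member with the largest change. Genes named for an unadjusted p of 0.05 or less, satellite cell and muscle fiber markers, Hdac4, Hdac5, Vgll2, the receptor subunits, Ppargc1a, Acta1, Myh3, Myh8, Myl4 and the genes that overlap Mef2a and Mef2d were chosen after their values were seen. Some genes that meet these criteria are not reported here. The members and lists were chosen with earlier results of these data known. Alternatives were other pseudocounts, minimums and scalings, limma without trend or with robust estimation, the replicate block, no fold minimum and leaving out each library.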

Additional observations from a re-analysis of the deposited data

How the results depend on the processing

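The count of called members was 0 under each of the 16 alternatives run, and Myf5, Myf6, Myog and Mef2d stayed below 0 in each alternative that tested them. These alternatives were not all distinct. Rescaling by the median of ratios gave the main fit again. The replicate block gave the log2 fold changes found without WT control replicate 3. Dropping the fold minimum could not add a member, since the smallest adjusted p of the members was 0.508 from limma. Rescaling to TPM, which moved the median of all genes by -0.29, turned the log2 fold changes of Mef2a to -0.068, Mef2c to -0.18, Tcf4 to -0.17, Bhlhe41 to -0.14, Rb1 to -0.053, Camk2g to -0.12 and Lmod3 to -0.13. Tcf3 turned to 0.019 after rescaling to genes not encoded by mtDNA, which moved the median of all tested genes by 0.073. Leaving out 1 library in turn gave log2 fold changes of -0.32 to 0.12 for Myod1 (above 0 without skmNrip1-/- replicate 1), -0.018 to 0.25 for Mef2c (below 0 without skmNrip1-/- replicate 2), -0.074 to 0.24 for Tcf4 and -0.12 to 0.33 for Camk2g (both below 0 without WT control replicate 1), and -0.17 to 0.095 for Tcf3 (above 0 without WT control replicate 1, and 0.055 without skmNrip1-/- replicate 1). The cause was not tested. Over all tested genes, 45 were called higher and 10 lower. These counts were 29 and 59 after rescaling to TPM, 22 and 3 without the trend, and 6 to 55 and 3 to 16 without 1 library. Without a library labelled skmNrip1-/-, the other one is assumed to vary like the WT control libraries. Nrip1 was not called without the trend, with the block, or without WT control replicate 3 or either library labelled skmNrip1-/- (adjusted p = 0.0769 to 0.189 from limma).

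With the replicate number as a block, 18 genes were called higher and 4 lower. The groups share 2 numbers, but their genotypes differ, so a shared number cannot mark the same mouse and the numbers were not taken as pairs. Same-numbered libraries had correlations of deviations of 0.065 and 0.095, and replicates 1 and 2 crossed had -0.065 and -0.095. With 2 libraries labelled skmNrip1-/- these values mirror each other, so they cannot decide whether the numbers are pairs. In alternatives without a minimum, the Pax7 log2 fold change lay between -0.58 and -0.23. Myog lay between -0.70 and -0.25 and Myf6 between -0.52 and -0.10. Leaving out 1 library moved the median log2 fold change of the inhibitors between -0.24 and 0.064, of the upstream factors between -0.017 and 0.054, of the MEF2 factors between -0.018 and 0.25, of the MEF2 repressors and cofactors between -0.26 and -0.053, of the coactivators between 0.032 and 0.20, of the targets of the myogenic factors between -0.16 and 0.012 and of the denervation and regeneration genes between 0.095 and 0.55. Counting error reached 15.6% per library for Myog and 16.7% for Myf5, against at most 2.18% for Myf6, which was not called either.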
